A study of Homo sapiens with 12 samples.

Results

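The 3 control siRNA samples of a MATR3 knockdown series, summarised by the authors at gene level, are described here as a picture of what SH-SY5Y cells express. SH-SY5Y is an established human neuroblastoma cell line. The samples were chosen by their titles, and they are 3 of the 12 sample records in the series, which also holds 3 MATR3 siRNA samples and an exon-level summary of the same arrays. Cells grown in medium with 15% fetal bovine serum received a negative control siRNA by electroporation, with 1 pulse of 1100 V for 50 ms, and total RNA was taken 48 h later, with 100 ng used for labelling. All 3 samples had been electroporated and no untreated cells were analysed here, so the values describe cells after this procedure. Whether the 3 replicates came from different cultures is not in the labels, so the replicate spread that enters the p-values here may be technical.

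Neuroblastoma arises from the sympathoadrenal lineage of the neural crest, which forms sympathetic neurons and the chromaffin cells of the adrenal medulla. A set of transcription factors that includes HAND2 and GATA3 switches on the noradrenergic programme, in which tyrosine is turned into dopa by TH, into dopamine by DDC and into noradrenaline by DBH, while PNMT makes adrenaline in chromaffin cells. Neuroblastoma cells can also take a mesenchymal state, marked by factors such as PRRX1 and by extracellular matrix genes.

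The unit ranked was the transcript cluster, the set of probes that the array assigns to a transcribed locus. Of 67528 clusters, 23781 had 1 gene symbol in the platform annotation and stood for 22411 genes, and only these were ranked, by the mean log2 signal over the 3 samples. Probes differ in how strongly they bind, so a higher signal of 1 gene than of another describes the array and not the number of RNA molecules. Each gene was instead read against 23 background probe sets in the same array. Their highest value was 8.75, 6.87 and 6.48 log2 units in replicates 1 to 3, their upper quartile 5.08, 4.78 and 4.81, and their median 3.80, 3.49 and 3.53. Their signal changed with the GC number in their names, in replicate 1 from 8.75 at number 3 to 2.99 at number 14. The levels were not matched to the probes of each gene.

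A cluster was called above background where its mean lay over the highest background probe set of the same array at an adjusted p under 0.05 in limma, fitted over all clusters with Benjamini-Hochberg adjustment. It was called low where it lay under the upper quartile of the background probe sets by the same test, and intermediate where neither held. Neither an intermediate nor a low call shows that a gene is not expressed. Of the 23781 clusters, 5808 (24.4%) were above background, 11320 were intermediate and 6653 (28.0%) were low, and over all 67528 clusters 14.6% were above background. DPAGT1, an enzyme of protein glycosylation, lay just inside with a mean of 8.52 and adjusted p = 0.0498 (limma, n = 3), and RHOT2, a mitochondrial GTPase, just outside at 8.52 with adjusted p = 0.0505. TET2 had the same mean and adjusted p as DPAGT1, though their SDs were 0.52 and 0.38. The call therefore acted much like a fixed cutoff, about 1.15 log2 units over the highest background probe set. It hardly used the spread of the gene itself.

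In replicate 1 this level was set by a probe set that varied between arrays. The background probe set numbered GC03 read 8.75 in replicate 1, 5.00 in replicate 2 and 6.41 in replicate 3, and without it the highest value in replicate 1 was 7.54. With that probe set left out, a choice made after seeing it, 8179 clusters were above background, and without replicate 1 the count was 8336. Against the upper quartile it was 13884 and against the median 22079. Without any model, 6355 clusters (26.7%) lay over the highest background probe set in every sample.

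**Figure D1:**
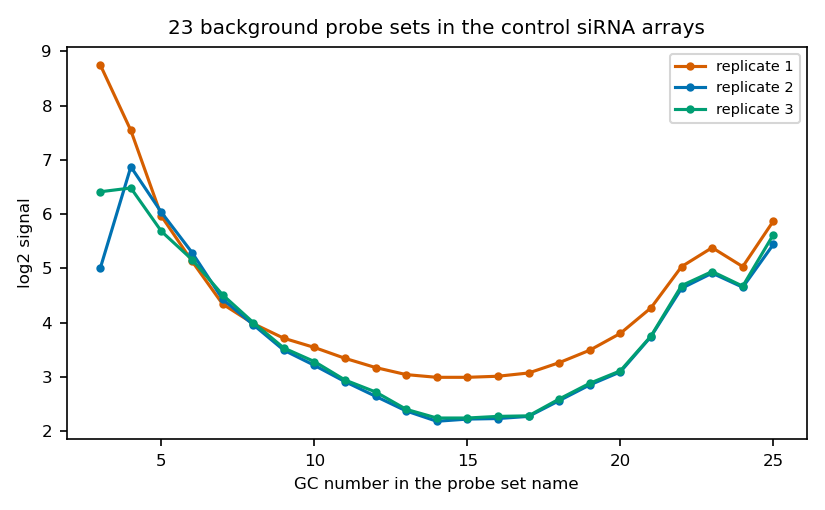
Log2 signal of the 23 background probe sets (vertical axis) against the GC number in their names (horizontal axis), with a line for each of the 3 control siRNA arrays. Replicate 1 lies above the others over most of the range and reads 8.75 at the lowest number, where replicate 2 reads 5.00 and replicate 3 reads 6.41.

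Of 7 marker genes of the sympathoadrenal lineage, 6 were above background and TH was not, while 25.2% of all 22411 genes were above background by their brightest cluster. DBH read 16.83, 17.15 and 17.13 log2 units in replicates 1 to 3 and held rank 18 of the 23781 clusters. DLK1, a surface protein of immature chromaffin and neuroblastoma cells, read 14.90, 14.74 and 14.95. GATA3, a zinc finger transcription factor, read 14.05, 14.03 and 13.89. These 3 genes lay at least 5 log2 units over the highest background probe set in every sample.

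ISL1, a LIM homeodomain factor of sympathetic neurons, read 13.03, 12.43 and 12.35. HAND2, a basic helix-loop-helix factor, read 12.57, 12.22 and 12.35, and CHGA, the granule protein chromogranin A, read 11.56, 11.01 and 11.09. The lowest single value among the 6 was 11.01, well over the 8.75 of the highest background probe set in any array. Over the level of the same array the mean was 9.67 log2 units for DBH (SD of the signal 0.18, n = 3, limma adjusted p = 1.83e-62), and it ran down to 3.85 for CHGA (SD of the signal 0.30, n = 3, limma adjusted p = 1.29e-10). These p-values are small in part because limma pools the spread over all clusters, and all clusters share the same 3 background values. The SDs are of the signal, while the test used the signal minus those values, which were 8.75, 6.87 and 6.48. The p-values do not measure how far the 3 background values could vary, so their size should not be read as strength of evidence.

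TH, the rate-limiting enzyme of catecholamine synthesis, read 4.85, 4.61 and 4.51, with rank 16582. It lay 2.71 log2 units under the highest background probe set and 0.23 under the upper quartile (limma adjusted p = 0.0747, n = 3), so it was intermediate and not low. Of the lineage markers, therefore, 6 of 7 had signal over background, and TH lay above neither the highest background probe set nor their upper quartile. TH was 1.05 log2 units over the median of the background probe sets (limma adjusted p = 0.000208, n = 3), a level that 22079 of the 23781 clusters passed.

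**Figure D2:**
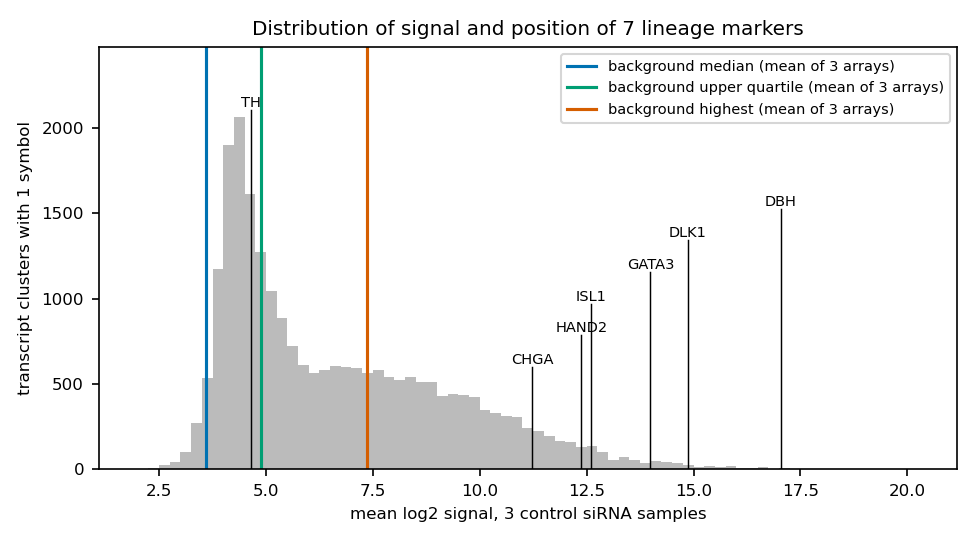
Number of transcript clusters with 1 symbol (vertical axis) by mean log2 signal over the 3 control siRNA samples (horizontal axis, bins of 0.25), with coloured lines at the mean background levels and thin lines at the 7 markers, whose heights only separate the names. TH at 4.66 sits in the main peak, under the upper quartile of background at 4.89, and the other 6 lie between 11.22 and 17.04.

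The exon-level summary of the same arrays, which is not independent, gave the same split. An exon probe set was counted where it lay over the highest background probe set of the gene-level summary in all 3 samples. For DBH all 12 of 12 did and for GATA3 all 16 of 16. For HAND2 the count was 17 of 20, for ISL1 13 of 15, for CHGA 11 of 13 and for DLK1 11 of 14. For TH it was 1 of 24, and the median over its exon probe sets was 4.37. The share over the exon probe sets of all genes is not given here. Exon counts of single genes, here and below, therefore have no such share beside them.

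The RefSeq promoter table (GRCh38.p14) held windows for 5 of the 7 markers, and for 4 of them exactly 1 window. The 250 bases before the start of these 4 genes are shown because they are the control regions of lineage genes that were all above background. Capitals mark TGACGTC, the core of the cAMP response element, CCAAT, the CCAAT box, and TATAAA, the TATA box, searched on both strands. Where the element is a full palindrome, as in CHGA, the matches of both strands overlap.
DBH, chr9:133636113-133636362, plus strand: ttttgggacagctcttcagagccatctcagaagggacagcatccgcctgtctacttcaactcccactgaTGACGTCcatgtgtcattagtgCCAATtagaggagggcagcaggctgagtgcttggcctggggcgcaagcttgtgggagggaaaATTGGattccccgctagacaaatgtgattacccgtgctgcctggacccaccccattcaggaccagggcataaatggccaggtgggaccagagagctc
CHGA, chr14:92922900-92923149, plus strand: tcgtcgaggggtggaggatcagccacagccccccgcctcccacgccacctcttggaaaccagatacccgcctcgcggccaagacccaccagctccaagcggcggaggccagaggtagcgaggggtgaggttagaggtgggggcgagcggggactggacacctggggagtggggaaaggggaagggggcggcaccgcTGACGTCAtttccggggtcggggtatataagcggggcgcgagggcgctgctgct
ISL1, chr5:51383198-51383447, plus strand: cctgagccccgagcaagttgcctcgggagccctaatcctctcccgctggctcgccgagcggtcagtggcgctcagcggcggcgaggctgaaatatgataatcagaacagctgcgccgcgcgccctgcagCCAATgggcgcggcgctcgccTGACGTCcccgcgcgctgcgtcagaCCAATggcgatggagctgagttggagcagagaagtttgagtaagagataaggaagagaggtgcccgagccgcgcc
HAND2, chr4:173530230-173530479, minus strand: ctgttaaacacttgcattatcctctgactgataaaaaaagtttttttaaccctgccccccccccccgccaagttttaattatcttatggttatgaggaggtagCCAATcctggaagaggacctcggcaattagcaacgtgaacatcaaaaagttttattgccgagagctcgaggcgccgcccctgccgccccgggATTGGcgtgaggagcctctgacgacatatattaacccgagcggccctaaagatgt

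TGACGTC was found in 3 of these 4 windows, those of DBH, CHGA and ISL1, and in 3.12% of the 35116 windows of the table. CCAAT was found in DBH, ISL1 and HAND2 and in 32.0% of all windows. TATAAA was in none of the 4 and in 10.7% of all. A match describes the letters only and says nothing of binding.

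Over all genes, promoter composition was set beside the call. Among 10230 protein-coding genes with 1 window, the median GC content was 65.2% for the 3231 above background, 64.8% for the 4539 intermediate and 51.0% for the 2460 low genes. The median number of CG pairs in the 250 bases was 22, 19 and 4. TATAAA was present in 4.27%, 7.84% and 20.1% of these classes, and TGACGTC in 6.25%, 4.69% and 1.91%, while CCAAT varied less, from 33.8% to 38.4%. These are descriptions across genes, which are not replicates.

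Transcription factors of the noradrenergic state were mostly above background, 12 of 18 measured, against 25.2% of all genes. The list median was 11.25, against 5.93 for all genes. Some listed factors were not analysed here. Without replicate 1 the count was 16, against 35.9% of all genes, and with the GC03 probe set left out it was 15, against 35.3%.

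The brightest of the list was GATA3, followed by HAND1, the paralogue of HAND2, at 13.90, 13.48 and 13.47. MEIS2, a homeodomain cofactor, read 13.98, 13.25 and 13.07, and TFAP2B, an AP-2 factor of the neural crest, read 13.32, 12.75 and 12.53. The differences between these neighbours in order, at means of 13.62, 13.43 and 12.87 with SDs of 0.25, 0.48 and 0.41 (n = 3 each), are of the size of the spread or little larger, and probes of different genes cannot be ranked as amounts. GATA2, the paralogue of GATA3, averaged 12.26 ± 0.24 (SD, n = 3). PHOX2A, a homeodomain factor of noradrenergic neurons, read 10.94, 9.84 and 9.69.

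The 6 intermediate factors were MEIS1, SOX11, LMO1, ZNF536, EBF1 and INSM1, with means from 5.17 to 8.34. SOX11, a factor of immature neurons, read 8.56, 8.21 and 8.20, over the background level in replicates 2 and 3 but not in replicate 1. INSM1, a zinc finger factor of neuroendocrine cells, had the lowest mean, with 5.71, 4.74 and 5.05. None of the 18 was low, against 27.4% of all genes.

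**Figure D3:**
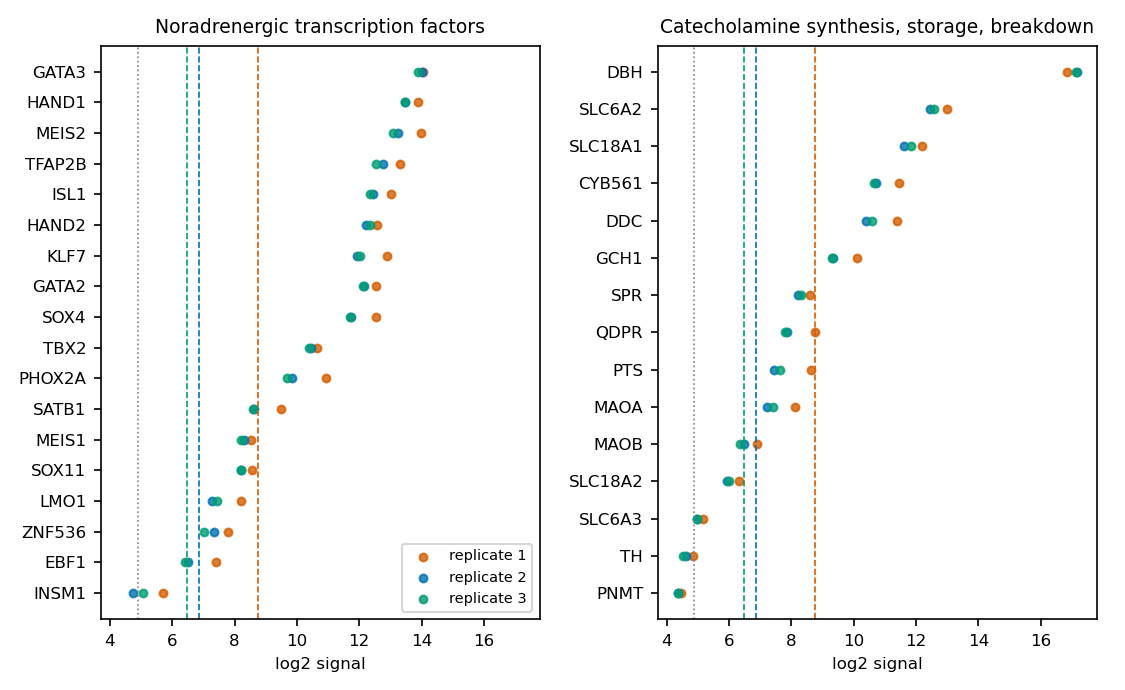
Log2 signal (horizontal axis) of the measured noradrenergic transcription factors and catecholamine genes (vertical axis), with a point for each control siRNA sample coloured by replicate, a dashed line of the same colour at the highest background probe set of that array and a dotted line at the mean upper quartile. DBH stands far to the right at 17.04, and PNMT at 4.39 and TH at 4.66 lie left of every dashed line.

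Catecholamine genes split by step. Of 15 measured, 6 were above background (40.0%, against 25.2% of all genes). Another 8 were intermediate, against 47.4% of all genes, and 1 was low, against 27.4%. Without replicate 1 the count was 10, against 35.9% of all genes, as it was with the GC03 probe set left out, and both settings added PTS, SPR, QDPR and MAOA.

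The enzymes of the next steps to noradrenaline, DDC and DBH, were both above background. DDC, which makes dopamine, read 11.39, 10.39 and 10.60, and DBH has been given with the markers. CYB561, a cytochrome of granule membranes that supplies DBH with electrons, averaged 10.94 ± 0.45 (SD, n = 3). PNMT, which makes adrenaline, was the low gene of the list, at 4.45, 4.35 and 4.37, with 0 of its 4 exon probe sets over background.

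Cofactor synthesis for TH was partly measured above background. GCH1, the first enzyme of tetrahydrobiopterin synthesis, averaged 9.58 ± 0.46 (SD, n = 3). PTS, SPR and QDPR, which complete or recycle the cofactor, averaged 7.90, 8.38 and 8.14 and were intermediate. All 3 lay over the background level in replicates 2 and 3, and QDPR also in replicate 1.

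The transporter pairs differed in which member was above background. SLC6A2, the noradrenaline transporter, read 12.99, 12.45 and 12.57, and SLC6A3, the dopamine transporter, read 5.17, 4.97 and 4.97. SLC18A1, the vesicular monoamine transporter of chromaffin cells, read 12.20, 11.62 and 11.85. SLC18A2, the form typical of neurons, read 6.31, 5.92 and 5.99, with 0 of 18 exon probe sets over background. The monoamine oxidases MAOA and MAOB averaged 7.57 and 6.58 and were intermediate.

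Secretory granule and neuropeptide genes were above background in 10 of 17 measured, against 25.2% of all genes, with a list median of 8.96. Of the 17, 5 were low, near the 27.4% of all genes. The brightest was SCG3, a granin that sorts chromogranin A into granules, at 13.79, 13.31 and 13.19. VGF, a nerve growth factor-induced granule protein, averaged 11.46 ± 0.03 (SD, n = 3), SCG2 10.47 ± 0.71 and CHGB 9.26 ± 0.35. Of the processing enzymes, CPE, a carboxypeptidase, averaged 8.96 and PAM, which amidates peptides, 9.20. Without replicate 2 the count was 6, with CHGB, CPE, PAM and GAL no longer called, against 17.8% of all genes. CPE and GAL were not called without replicate 3 either.

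The peptides fell into separate sets. NPY, a cotransmitter of sympathetic neurons, read 13.01, 12.65 and 12.50, VIP 10.13, 9.65 and 9.58 and galanin, GAL, 9.35, 8.53 and 8.70. SST, TAC1, PENK, CARTPT and ADCYAP1, which encode somatostatin, substance P, enkephalin, CART and PACAP, were all low, with means from 4.19 to 4.36. The intermediate members were SCG5 at 6.99 and PCSK1N at 6.91, both of which bind prohormone convertases. The convertases PCSK1 and PCSK2 were not analysed here.

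Surface proteins and receptors of the lineage were above background in 9 of 18 measured, against 25.2% of all genes, and none was low, against 27.4%. Without replicate 2 the count was 6, against 17.8% of all genes. DLK1 was the brightest, followed by CHRNA3, a subunit of the ganglionic nicotinic receptor, at 14.72, 14.28 and 14.32. The other subunits of that receptor cluster, CHRNA5 and CHRNB4, averaged 10.97 ± 0.36 and 9.41 ± 0.26 (SD, n = 3 each), also above background, though CHRNB4 was not called without replicate 2. The adhesion molecules NCAM1 and L1CAM averaged 14.01 and 11.75.

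Among receptor kinases, RET, the receptor for GDNF ligands, read 11.34, 10.72 and 10.73. ALK, a neuroblastoma oncogene, averaged 8.65 ± 0.31 (SD, n = 3) and was not called without replicate 2 or without replicate 3. The coreceptors through which RET binds its ligands, GFRA1, GFRA2 and GFRA3, were intermediate, at 4.91, 5.99 and 5.29. The neurotrophin receptors NTRK2, NTRK3 and NGFR averaged 4.72, 5.75 and 5.64, also intermediate. RET therefore stood above background in all 3 samples while the measured coreceptors lay under it in all 3.

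The enzymes that make the ganglioside GD2, a surface antigen of neuroblastoma, differed from each other. B4GALNT1, which adds its N-acetylgalactosamine, averaged 8.58 ± 0.36 (SD, n = 3) and was above background, though not without replicate 2 or without replicate 3. ST8SIA1, which makes its precursor GD3, read 4.76, 4.57 and 4.77, with 2 of 22 exon probe sets over background. GPC2, a glypican, averaged 6.41 and the muscarinic receptor CHRM3 7.76, both intermediate.

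Pan-neuronal genes were above background in 18 of 26 measured (69.2%, against 25.2% of all genes), with a list median of 10.66. STMN2, a stathmin of growing neurites, read 15.85, 15.69 and 15.75. The neurofilaments INA and NEFL averaged 14.91 ± 0.24 and 13.99 ± 0.40 (SD, n = 3 each), and NEFM and NEFH 12.28 and 9.96. The RNA-binding proteins ELAVL3 and ELAVL4 averaged 13.56 and 13.47, and UCHL1, a neuronal deubiquitinase, 13.45.

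The 8 intermediate members were DCX, MAPT, ELAVL2, PRPH, SYP, STX1A, RBFOX1 and RBFOX3. RBFOX3, the antigen NeuN of mature neurons, read 4.96, 4.94 and 4.96, and its relative RBFOX1 averaged 5.03, each with 1 exon probe set over background, of 21 and 38. DCX, a microtubule protein of migrating neurons, read 7.78, 6.57 and 7.01. PRPH, the peripheral neurofilament, averaged 6.69, and SYP, of synaptic vesicles, 7.07. The vesicle release genes SNAP25 and SYT1 were above background, at 10.29 and 9.90.

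Of 15 measured genes of other transmitter types, 11 were low, against 27.4% of all genes, 2 were intermediate and 2 were above background, against 25.2%. The list median was 4.25. Without replicate 2, 1 was above, as FEV was no longer called. Glutamate transporters of vesicles (SLC17A6, SLC17A7, SLC17A8), GABA synthesis and loading (GAD1, GAD2, SLC32A1), glycine uptake (SLC6A5), serotonin synthesis and uptake (TPH1, TPH2, SLC6A4) and histamine synthesis (HDC) had means from 3.98 to 4.70.

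The members above background were SLC18A3, the vesicular acetylcholine transporter, and FEV, a transcription factor of serotonergic neurons. SLC18A3 read 12.41, 11.51 and 11.51, while CHAT, the enzyme that makes acetylcholine, read 5.02, 4.68 and 4.74 and SLC5A7, the choline transporter, 4.15, 4.07 and 4.01. SLC18A3 lies within an intron of CHAT, and both its 2 exon probe sets were over background, against 1 of 27 for CHAT. FEV read 9.61, 9.42 and 9.35, with 4 of 6 exon probe sets over background, while the serotonin genes named before were all low.

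Genes of the mesenchymal neuroblastoma state were above background in 7 of 29 measured (24.1%, near the 25.2% of all genes), with a list median of 6.20. Without replicate 1 the count was 12, against 35.9% of all genes, as it was with the GC03 probe set left out, and both settings added SNAI1, SNAI2, FN1, THY1 and PDGFRB. Factors often used to define the state were low, PRRX1 at 4.40, 4.46 and 4.58, YAP1 at 4.67, 4.34 and 4.34 and WWTR1 at 4.62, 4.27 and 4.30. RUNX2, TWIST2 and TGFBI were low as well, with means from 4.16 to 4.48.

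The 7 above background were LGALS1, TWIST1, VIM, ANXA2, ZEB1, PDGFRA and NOTCH2, of which NOTCH2 was not called without replicate 2 or without replicate 3. LGALS1, a galectin, averaged 11.42 ± 0.56 (SD, n = 3), TWIST1, a factor also used by neural crest cells, 11.25 ± 0.70, and the intermediate filament VIM 11.06 ± 0.31. ANXA2, an annexin, read 11.53, 10.69 and 10.78, and ZEB1, a repressor of epithelial genes, averaged 10.18. Collagens and the hyaluronan receptor CD44 were intermediate and close to the upper quartile of background, COL1A1 at 4.90, COL1A2 at 4.89 and CD44 at 5.17. Fibronectin, FN1, averaged 7.73, with 45 of 87 exon probe sets over background.

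Of the other intermediate members, SNAI1, THY1, PDGFRB and SNAI2 averaged from 7.47 to 8.43, and FOSL1, FOSL2, NOTCH3, MAML2, LUM, DCN, ACTA2 and S100A6 from 4.66 to 6.60. SNAI1, a repressor of epithelial genes, read 8.96, 8.50 and 7.75, over the background level in each of the 3 samples but not called.

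Markers of Schwann cells, glia and uncommitted neural crest held 0 of 13 above background in limma, against 25.2% of all genes, and 0 also at an unadjusted p under 0.05, without replicate 1 and with the GC03 probe set left out. The low members were FOXD3, PAX3, OLIG2, ERBB3, FABP7, AQP4 and MBP. SOX10, the crest and Schwann factor, read 5.05, 4.80 and 4.78, and S100B and GFAP, glial proteins, averaged 5.36 and 4.96. SOX9 at 6.06, MITF at 5.73 and SOX2 at 5.25 were the highest of the rest. Against the upper quartile of background 4 of the 13 passed, as did 59.1% of all genes.

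Markers of other cell types were not above the highest background probe set either. Over 7 lists, for adrenal cortex, epithelium, liver, blood, endothelium, muscle and pluripotent or germ cells, 0 of 43 measured genes were above background in limma (0 also at an unadjusted p under 0.05), against 25.2% of all genes. Of the 43, 17 were intermediate and 26 were low, against 27.4% low among all genes. Against the upper quartile of background, 2 of 8 epithelium, 2 of 5 blood, 1 of 6 endothelium and 2 of 5 muscle genes passed. No gene of the adrenal cortex, liver and pluripotent or germ cell lists did, while 59.1% of all genes passed. Against the median of background every member of the 7 lists passed, as did 22079 of the 23781 ranked clusters. All 7 adrenal cortex genes were low, among them NR5A1, the master regulator of steroid-producing cells, at 4.77, 4.36 and 4.33. Another was STAR, a gene of cholesterol transport within such cells. The leukocyte antigen PTPRC averaged 4.13, albumin 4.29, the endothelial PECAM1 4.03 and the pluripotency factor NANOG 4.02. The highest of the 43 were CD68, a lysosomal protein, at 6.74, KRT8, a keratin, at 6.66 and ACTC1, cardiac actin, at 6.39. In bulk RNA, a few cells with much of an RNA and many cells with little cannot be told apart.

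**Figure D4:**
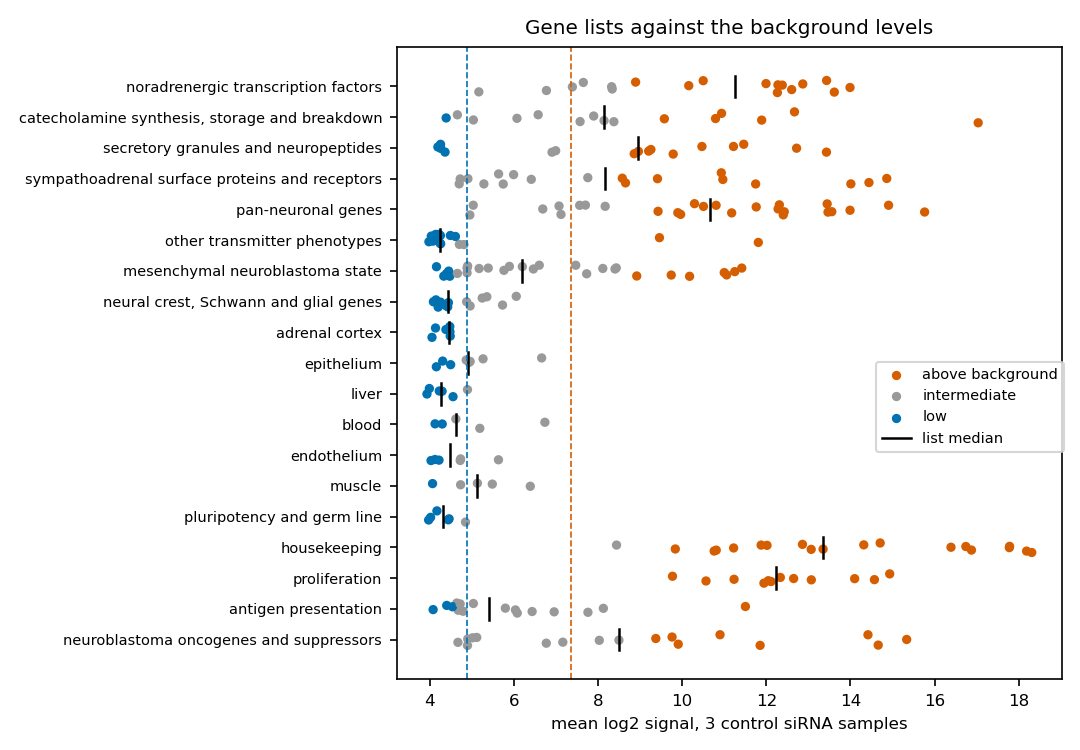
Mean log2 signal over the 3 control siRNA samples (horizontal axis) of each measured gene in 19 lists (vertical axis), coloured by its call, with the list median as a black bar and dashed lines at the mean highest background probe set (7.37) and the mean upper quartile (4.89). Housekeeping and proliferation genes lie to the right with medians of 13.35 and 12.22, and the lists for other cell types lie at the left with no gene above background.

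Housekeeping genes were above background in 18 of 19 measured, against 25.2% of all genes, with a list median of 13.35. EEF1A1, a translation elongation factor, read 17.98, 18.32 and 18.26, TUBA1B, an alpha tubulin, 17.84, 18.55 and 18.54 and GAPDH, of glycolysis, 16.63, 17.01 and 16.99. These bright genes were lowest in replicate 1. HPRT1, of purine salvage, was highest in replicate 1, at 11.21, 10.58 and 10.64. SDHA, of the respiratory chain, was the only member not called, at 8.89, 8.24 and 8.19, each over the background level of its array.

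All 12 of 12 proliferation genes were above background, against 25.2% of all genes, with a list median of 12.22. MKI67, the Ki-67 antigen of cycling cells, read 15.33, 14.75 and 14.72, TOP2A, a topoisomerase of dividing cells, 14.97, 14.39 and 14.35 and CCNA2, cyclin A2, 14.25, 14.04 and 14.01. The lowest of the list was MCM2, a replication helicase subunit, at 9.77 ± 0.31 (SD, n = 3). The count was 12 under each background level tried.

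Of 16 antigen presentation genes 1 was above background (6.25%, against 25.2% of all genes), and the list median was 5.42. That gene was B2M, the light chain of class I molecules, at 11.95, 11.28 and 11.28. The heavy chains were intermediate, HLA-C at 7.62, 6.65 and 6.60, HLA-F at 6.43, HLA-E at 6.04 and HLA-B at 5.80, each by the brightest of 6 or 7 clusters, and these genes are alike in sequence, so their signals may not be separate. TAP1, a subunit of the peptide transporter, read 4.29, 3.99 and 3.96 and was low, as were the immunoproteasome subunit PSMB8 at 4.40 and the class II chain HLA-DRA at 4.54. NLRC5 and CIITA, the regulators of class I and class II genes, averaged 4.68 and 4.64. Without replicate 1 the count was 3, against 35.9% of all genes, as it was with the GC03 probe set left out, and both settings added TAPBP and ERAP1, of peptide loading and trimming.

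Oncogenes and suppressors linked to neuroblastoma were above background in 8 of 17 measured, against 25.2% of all genes. CCND1, cyclin D1, read 15.38, 15.29 and 15.34 and its partner CDK4 14.43, 14.45 and 14.37. ODC1, the polyamine enzyme that MYC proteins induce, averaged 14.66 ± 0.21 (SD, n = 3). MYC read 10.28, 9.64 and 9.36, while MYCN, the gene amplified in high-risk tumours, read 5.00, 4.91 and 4.80, with 0 of 6 exon probe sets over background.

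ATRX, MDM2, BCL2 and BARD1 averaged 11.85, 10.90, 9.91 and 9.37 and were above background, BARD1 not so without replicate 2. CASP8, RASSF1 and CDKN2A, suppressors often silenced or deleted in tumours, averaged 4.67, 5.12 and 5.02, and the phosphatase gene PTPRD 4.90. Telomerase, TERT, averaged 6.77, LIN28B 7.16, NME1 8.03 and DAXX 8.50. All 8 of these were intermediate, TERT with 5 of 22 exon probe sets over background.

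Of the whole ranking, the 20 brightest clusters outside the named small RNA classes belonged to 14 genes and had means from 16.64 to 18.31. They were TUBA1B, SLC44A4, EEF1A1, ACTG1, TUBB, RGS5, H2AC20, PABPC1, DBH, GAPDH, RPL41P2, RPS15, HSP90AB1 and RMRP. DBH and RGS5 stood among cytoskeletal, translation and chaperone genes. RGS5, a regulator of G protein signalling, read 17.49, 17.57 and 17.61 on its brighter cluster and averaged 6.32 on the other. TUBB, a beta tubulin, held 7 of the 20 clusters, of which 6 had the same values.

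SLC44A4, a choline transporter family member, shows how a rank can rest on a single cluster. Of its 8 clusters 1 read 17.87, 18.52 and 18.53, and the other 7 had means from 4.51 to 4.55. Of 528 genes with several clusters, 85 held both called and uncalled clusters. Among the 100 brightest clusters, 56 were protein-coding, 16 were small nucleolar RNAs and 13 were pseudogenes.

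Gene classes that are silent in most tissues gave a check of the call. Of 441 olfactory receptor clusters 1 was above background (0.227%) and 84.6% were low, and their median was 3.94. That cluster was OR7G1, at 11.25, 10.75 and 10.71. Of 155 clusters for V segments of immunoglobulins and T cell receptors 0 were above background in limma (0 also at an unadjusted p under 0.05), or 1 with the GC03 probe set left out. These sets were chosen after values had been seen.

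By annotated type, 29.1% of 18212 protein-coding clusters were above background, 33.6% of 262 small nucleolar RNAs, 5.97% of 1088 microRNAs and 2.81% of 2101 long noncoding RNAs. Over the autosomes and the X chromosome, 30.1% of protein-coding genes were above background. The share ran from 17.2% of 373 genes on chromosome 22 to 38.6% of 241 genes on chromosome 18.

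The replicates were not equally alike. Replicates 2 and 3 correlated at r = 0.9948 across clusters, and replicate 1 with them at 0.9856 and 0.9848, where clusters are not independent points. The SD over the 3 samples had a median of 0.30 log2 units over the ranked clusters. Without replicate 1 it was 0.06. Replicate 1 was over the mean of the other samples in 22194 of 23781 clusters, by a median of 0.50, while the median signal of ranked clusters was 6.16 in replicate 1 and 5.70 in each of the others. Whether this difference is technical was not tested.

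Among clusters above background, the widest spread was in small RNAs and their pseudogenes. Over all ranked clusters 149 had an SD over 1 log2 unit, and 81 of them were above background. The 10 clusters with the largest SD among those above background were RNA5SP19, RNA5SP325, RNA5SP335, RNA5SP243, RNA5SP343 and RNA5SP493, annotated as pseudogenes of 5S ribosomal RNA, RNU5D-2P and RNU5A-1, of the U5 spliceosomal RNA, the small nucleolar RNA SNORA23 and MIR1299. In each of these replicate 1 was the highest sample, as it was in 5707 of the 5808 clusters above background. SNORA23 read 15.08, 11.86 and 11.13, and RNU5A-1 read 11.83, 8.47 and 7.88.

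As a class, replicate 1 exceeded the mean of replicates 2 and 3 by a median of 1.97 log2 units in 36 RNA5SP clusters above background, by 2.96 in 5 U5 clusters, by 1.24 in 24 H/ACA box and by 1.08 in 64 C/D box small nucleolar RNAs. In 5297 protein-coding clusters above background the median was 0.74. An SD over 1 log2 unit was found in 23 of the 36 RNA5SP clusters and in 7 of the 5297 protein-coding ones. The small RNAs are named from near-identical copies, so their clusters need not be separate measurements.

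**Figure D5:**
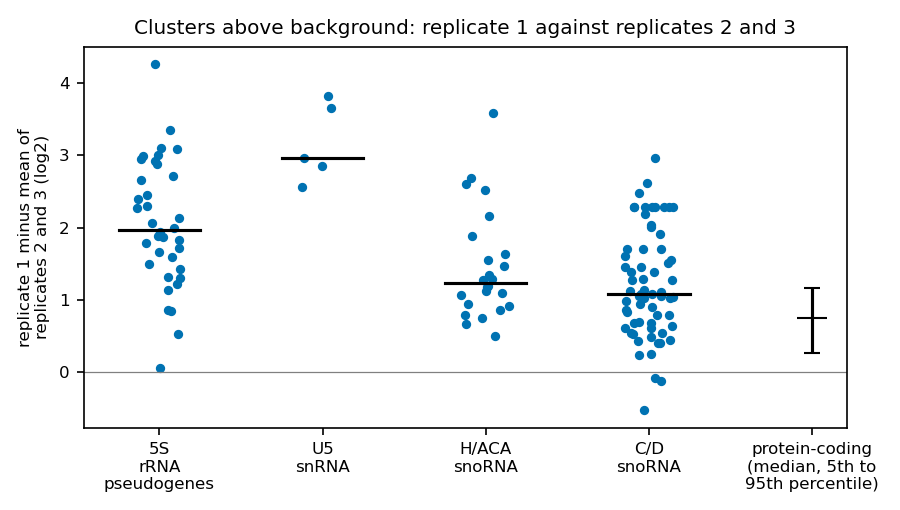
Replicate 1 minus the mean of replicates 2 and 3 (vertical axis, log2) for clusters above background in 4 small RNA classes (horizontal axis), with a point for each cluster and a bar at the class median, beside the median and the 5th to 95th percentile of protein-coding clusters. Nearly all points lie over 0, and the U5 and 5S classes lie highest, with medians of 2.96 and 1.97 against 0.74 for protein-coding clusters.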

How the data were processed

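Gene expression was measured on Affymetrix transcriptome arrays. The authors deposited log2 signals per transcript cluster and, for the same arrays, per exon or junction probe set. Per the submitters' processing notes they used Affymetrix Expression Console and RMA. Versions, genome build and annotation release are not given in the sources used here. No value was rescaled. Arrays give no read depth, so precision is limited by how many there are.

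Of the ranked clusters, 21497 were named through the gene identifier, 1974 had a current symbol, 306 went by an older symbol and 4 stayed as annotated. RefSeq GRCh38.p14 gave names, chromosomes and promoters. For a gene with several clusters the brightest was used.

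For 3 samples, signal minus the highest background probe set of the array was tested against 0 (lmFit and eBayes, two-sided, Benjamini-Hochberg over 67528 clusters, threshold 0.05) in limma 3.58.1 under R 4.3.3, with tables made in Python 3.11.15. On simulated data of that size, 100% of 33 clusters set 2 log2 units over background, 12.1% of those at 1 and 0% of those at 0 were called above. The simulation kept the observed background levels and the observed shift between arrays. It therefore cannot show the error that comes from those levels, and it gives no rate of false calls for the data.

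The members and the 19 gene lists, with 258 of 291 genes measured, were chosen with earlier results of these data known. Named genes are the 7 markers, in each list all members not called and up to 6 of the brightest called, the 20 brightest clusters that are not small RNAs by symbol (SNOR, MIR, RNU, RNY, RN7, SCARNA, VTRNA, SNAR) and the 10 with the largest SD among those above background. Members for other cell types and antigen presentation are printed in part. Further genes were named after their values were seen. Alternatives changed the background level, the scaling, the samples, the features fitted, the call rule and the cluster of a gene.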

Additional observations from a re-analysis of the deposited data

Results flagged for a closer look

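Transcript clusters without a gene symbol were not ranked, and 3581 of 42204 (8.48%) were above background in limma, with the highest at a mean of 19.90 log2 units, against a mean highest background probe set of 7.37. They are given because this signal lies outside the ranked clusters. Above the level in every sample, with no model, were 4108. With 3 samples, no search for outlying samples was made.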

How the results depend on the processing

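The background level decided the counts. Against the median of the background probe sets, the upper quartile, and the 95th percentile of olfactory receptor clusters (added after seeing the data), the clusters above background were 22079, 13884 and 13239 in place of 5808, the list members 257, 163 and 158 in place of 103, the named genes 211, 117 and 112 in place of 57, and the clusters over the level in every sample 22634, 14590 and 13876 in place of 6355. The median and the upper quartile are lower by construction, and the olfactory receptor level was measured lower, at a mean of 5.04 against 7.37. The named genes were picked in part by the main call, so their counts are not a separate result. TH changed sign only against the median, to 1.05 log2 units over it. Leaving out single replicates gave 4080 to 8336 clusters, 91 to 125 list members, 56 to 79 named genes and 6357 to 8969 clusters over the level in every sample. It gave 81 to 84 exon probe sets of the markers in place of 81, and a median SD of 0.057 to 0.361 in place of 0.304. Counts that need every sample, of clusters or exon probe sets, can only stay or rise when a replicate is left out. Median centring gave a median SD of 0.171. It moved the signal and the background of an array alike, so its count of 5808 clusters above background was fixed by construction. Quantile normalization gave 6281, fitting clusters with 1 symbol 5841. No paired analysis was possible because only control siRNA samples were described. Quantile normalization was not run for the median SD, the counts in every sample or the exon probe sets.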
